A study of Solanum lycopersicum with 12 samples.

Results

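A set of 42 genes of the tomato root was chosen for a transcript level that stayed within set limits under aluminium (Al) in wild-type (WT) plants and was lost in slstop1 mutant plants. The median level with Al was 84.7% of that without in WT and 18.1% in slstop1, and 33 of the 42 were lower with Al in WT too. Of the 3159 candidate genes within those limits in WT, 1671 were lower with Al in WT. In libraries left out of the choice, flatness in WT held for fewer than 2 in 5 of the chosen genes, as given below. The same share was not worked out for all genes flat in WT, so it has no base to be read against. The 42 were taken from 35768 gene models, of which 9883 had a group mean of at least 5 FPKM without Al in both genotypes. FPKM scales the fragments counted for a transcript by its length and by the size of the library. The genes were chosen by their measured levels: a response to Al between -0.5 and 0.5 in WT, a response of at most -1.5 in slstop1, and every slstop1 library with Al below every WT library with Al. Response here means log2((Al + 1)/(no Al + 1)) of group mean FPKM. Every value of these genes in the 4 groups is therefore part of how they were selected, and is given below as a description.

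RNA from roots of tomato (Solanum lycopersicum) plants, 20 days old, was sequenced. The 4 groups were WT at 0 µM Al, WT at 60 µM Al, slstop1 at 0 µM Al and slstop1 at 60 µM Al, each in solution of pH 4.7 and each with 3 biological replicates. All groups thus shared the acid solution, and the controls lacked Al only. The sources used here do not give the kind of mutation in slstop1, the number of independent lines or any pooling of plants.

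Al ions become soluble in acid solution and damage the growing root tip. The Arabidopsis zinc finger protein STOP1 switches on genes for tolerance of acid and of Al, among them the channel that releases malate to bind Al outside the root. The gene disrupted in slstop1 is its tomato homologue. Among the 42 genes, 1 could be named, FER, a basic helix-loop-helix transcription factor that tomato roots need to switch on iron uptake. Neither the deposited table nor the reference gene table pairs the identifiers with names. The name of FER, like the other gene names below, was recorded by hand from published tomato nomenclature. Of 158 identifiers recorded in that way 155 were in the table, 78 reached 5 FPKM without Al in both genotypes, 17 of those were flat in WT by the limits above, and FER alone was among the 42. The other 41 are given by identifier, and the first 2 digits of an identifier are its chromosome number.

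The library totals behind the values are unknown, and the summed FPKM of a library ran from 696287 to 719916. Genes at 1 FPKM or more numbered 12227 to 12539 in the slstop1 libraries with Al and 13190 to 14753 in the others. SlSTOP1 (Solyc11g017140.2) differed in level between the genotypes: it stood at 55.97 to 88.6 FPKM in the 6 WT libraries and at 27.65 to 39.82 FPKM in the 6 slstop1 libraries. Its transcript was thus still present in slstop1, and the level alone does not show that the gene is disrupted. FER was also on the list of root markers, and its change with Al in WT did not pass (limma adjusted p = 0.656). The 3 other root markers fell with Al in both genotypes (limma, adjusted p under 0.05). The summed level of SlSHR and SlSCR, which pattern the root's inner tissues, and SlHKT1;2, a sodium transporter, was 31.5 to 33.9 FPKM in WT without Al, 27.3 to 35.3 in slstop1 without Al, 11.6 to 12.3 in WT with Al and 5.44 to 7.95 in slstop1 with Al. SlHKT1;2 was at 0 in all libraries with Al. Small-subunit Rubisco genes, markers of green tissue, summed over 5 gene models to 15.3 to 44.4 FPKM in WT without Al, 11.8 to 48.8 in slstop1 without Al, 14.1 to 27.9 in WT with Al and 57.3 to 78.1 in slstop1 with Al. Most of that came from Solyc03g034220.3, whose rise with Al in slstop1 did not pass (limma adjusted p = 0.0502). Of the 5, Solyc02g085940.3 was at 0 in all libraries but 1 of slstop1 with Al, at 0.4 FPKM. The others had lower slstop1 means with Al than without: Solyc02g085930.3 (2.22 to 0.927 FPKM), Solyc02g063150.3 (0.39 to 0.0733) and Solyc02g085950.3 (0.493 to 0.0767). The part of either marker list in the values of the 42 genes was not tested. In bulk roots, fewer cells of a type and less RNA per cell cannot be told apart.

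The rule left 42 genes after these steps. Of the 9883 genes, 3159 had a WT response between -0.5 and 0.5, and 55 of those had a slstop1 response of at most -1.5. Among these 55 genes, 13 were set aside because their libraries with Al overlapped between genotypes. Most genes that were flat in WT were close to flat in slstop1: their median slstop1 response was -0.13, with 5% of them below -0.99 and 5% above 0.59. Only 20 of the 3159 reached a slstop1 response of 1 or more, against 148 at -1 or less. The same rule with the genotypes exchanged, flat in slstop1 and lost in WT, found 5 genes among 2561 that were flat in slstop1. The exchanged rule uses the same libraries, and the median response of all tested genes was also lower in slstop1 (-0.47) than in WT (-0.28).

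**Figure D1:**
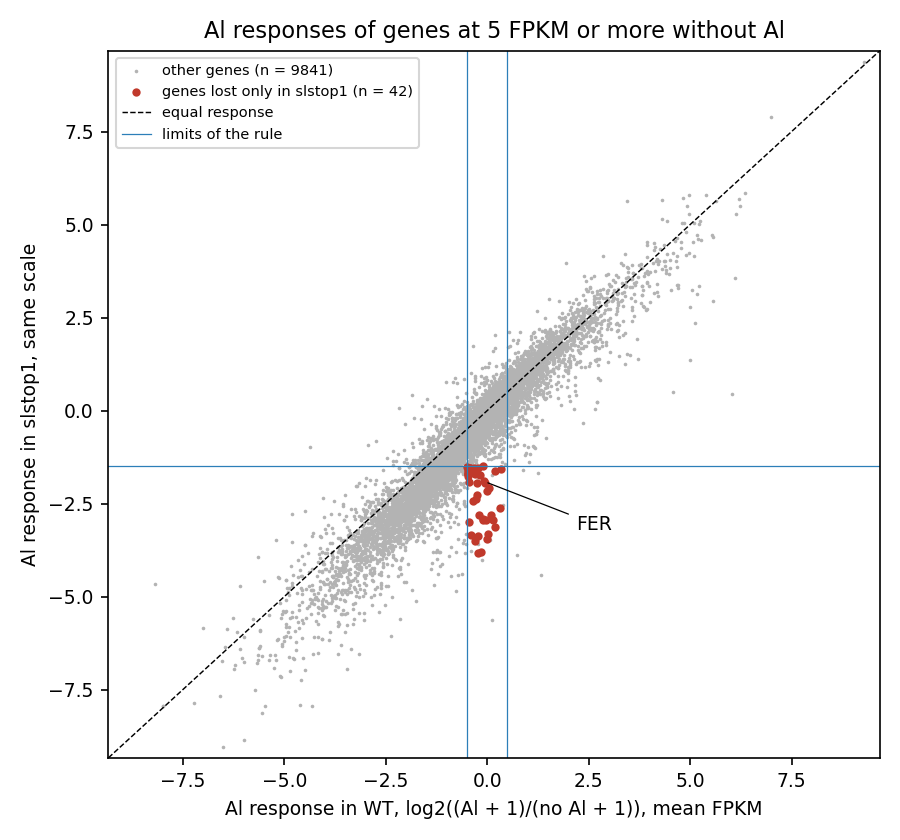
Al response in WT (horizontal) and in slstop1 (vertical), both as log2((Al + 1)/(no Al + 1)) of group mean FPKM, for the 9883 genes with at least 5 FPKM without Al in both genotypes. The 42 genes (red) lie between the vertical limits at -0.5 and 0.5 and below the horizontal limit at -1.5, under the bulk of the genes (grey). The dashed line marks equal response. The median of the slstop1 response minus the WT response over the 9883 genes is -0.22, which is below that line.

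Over the 42 genes, the median level was 17.7 FPKM (WT, no Al), 13.7 (WT, Al), 20.1 (slstop1, no Al) and 2.80 (slstop1, Al). The median response was -0.23 in WT, with a range of -0.49 to 0.35, and -2.02 in slstop1, with a range of -3.82 to -1.5. Over all 15903 genes tested these medians were -0.28 and -0.47. Expressed as the share of the FPKM without Al that was left with Al, the genes kept 69.6% to 129% in WT (median 84.7%) and 0% to 32.9% in slstop1. WT responses leaned downward within the allowed window: 33 of the 42 were below 0, and 12 lay between -0.5 and -0.4. Of the 3159 genes flat in WT, 1671 were below 0. In slstop1 with Al the mean of 8 genes was under 1 FPKM, that of 16 from 1 to under 5 FPKM, and that of 18 at 5 FPKM or more. A slstop1 library with Al at exactly 0 occurred in 6 genes, and no library of the other groups was at 0 for any of them.

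**Figure D2:**
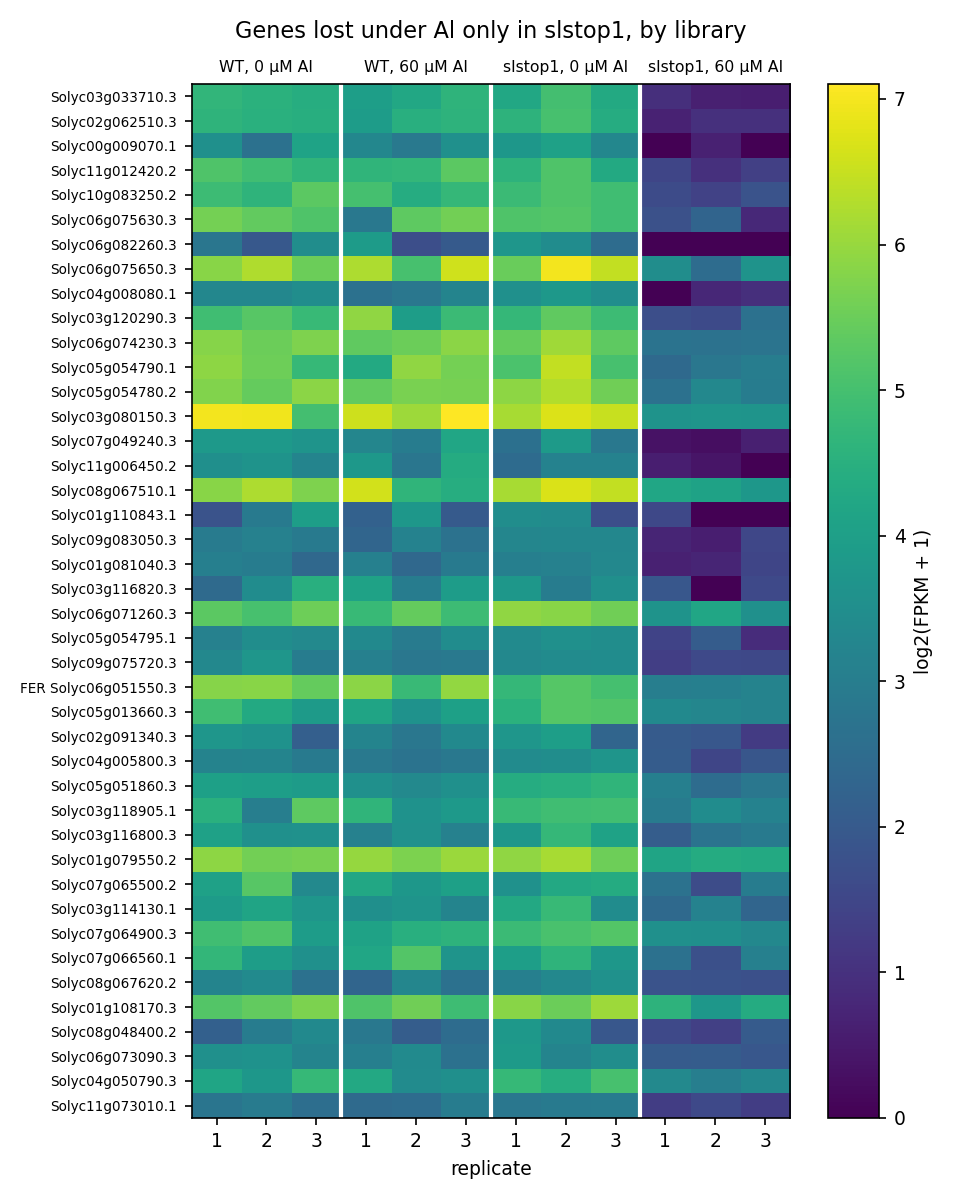
Level of each of the 42 genes (rows, ordered by slstop1 response, lowest at the top) in each of the 12 libraries (columns, by group and replicate), as log2(FPKM + 1). The 3 columns of slstop1 with Al are darker than those of WT with Al in every row, and darker than those of slstop1 without Al in 41 of 42 rows, the exception being Solyc08g048400.2.

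A slstop1 response of -3 or lower was reached by 8 genes, and some of these went from over 20 FPKM to under 1 FPKM. Solyc03g033710.3 read 24.39, 22.16 and 20.68 FPKM in WT without Al, 14.9, 18.13 and 23.79 in WT with Al, 18.18, 30.39 and 19.07 in slstop1 without Al, and 0.93, 0.55 and 0.51 in slstop1 with Al. The 9 libraries outside slstop1 with Al overlap freely, and the 3 slstop1 libraries with Al lie far under all of them. It kept 84.5% in WT and 2.94% in slstop1 (responses -0.23 and -3.82), the lowest slstop1 response of the 42 at a pseudocount of 1.

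Solyc02g062510.3 had nearly the same profile at nearly the same level. Its values were 23.45, 21.59 and 21.09 FPKM in WT without Al, 14.25, 21.47 and 23.15 in WT with Al, 23.01, 31.7 and 19.91 in slstop1 without Al, and 0.6, 0.99 and 0.99 in slstop1 with Al. The genotypes again did not overlap with Al, and its response in slstop1 minus that in WT, -3.64, was the most negative of the set with the pseudocount of 1 used here, just beyond the -3.59 of Solyc03g033710.3. That order depends on the pseudocount: at 0.1 the value was -4.53, behind the -6.51 of Solyc06g082260.3, and at 5 it was -2.21, behind the -2.56 of Solyc03g080150.3. The identifiers lie on chromosomes 2 and 3, so the pair are not neighbours.

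Solyc11g012420.2 was the flattest of these in WT. It read 34.19, 29.55 and 23.94 FPKM in WT without Al, 24.08, 24.98 and 38.83 in WT with Al, 23.23, 34.55 and 18.92 in slstop1 without Al, and 1.79, 0.97 and 1.52 with Al. Its group means in WT, 29.2 ± 5.13 and 29.3 ± 8.27 FPKM (SD, n = 3), differ by less than their spread. Between the lowest WT library and the highest slstop1 library with Al the gap was 3.17 on the log2(FPKM + 1) scale, the widest of the 42; for Solyc03g033710.3 it was 3.04.

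The lowest levels in slstop1 with Al were found in genes of modest expression. Solyc06g082260.3 was at 0 in each of the slstop1 libraries with Al. Its WT libraries spread widely, at 5.95, 2.85 and 10.27 FPKM without Al and 13.97, 2.28 and 3.03 with Al, and its slstop1 libraries without Al read 12.17, 9.86 and 4.74. A value of exactly 0 in FPKM can be a failed estimate. The slstop1 response minus the WT response of this gene therefore hangs on the pseudocount: -3.32 at 1, -6.51 at 0.1 and -1.49 at 5. Solyc00g009070.1, which no chromosome is assigned to, read 0, 0.56 and 0 FPKM in slstop1 with Al, against 8.84, 6.38 and 10.88 in WT with Al, 10.9, 5.24 and 16.42 in WT without Al, and 12.62, 15.73 and 8.76 in slstop1 without Al. Both genes separate the genotypes with Al, as the rule required. The WT means of Solyc06g082260.3 were loose, at 6.36 ± 3.73 FPKM without and 6.43 ± 6.54 FPKM with Al (SD, n = 3). For Solyc00g009070.1 the WT mean without Al was loose, at 10.9 ± 5.59 FPKM, and that with Al was tighter, at 8.70 ± 2.25 FPKM.

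Some of the losses concerned well expressed genes. In WT without Al 20 of the 42 had a mean of 20 FPKM or more, and 12 were under 10 FPKM. The highest mean in WT without Al belonged to Solyc03g080150.3, at 125.59, 122.24 and 30.31 FPKM in WT without Al, 93.31, 65.88 and 136.4 in WT with Al, and 70.55, 104.97 and 89.82 in slstop1 without Al. In slstop1 with Al it read 11.53, 12.14 and 11.68 FPKM, a tight group at 13.3% of the level without Al. Replicate 3 of WT without Al was low for this gene, and still lay above all slstop1 libraries with Al.

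Solyc08g067510.1 was next in level, and its place in the set rests on 1 library. It read 56.5, 73.77 and 52.55 FPKM in WT without Al, 97.97, 23.93 and 20.52 in WT with Al, 71.82, 102.51 and 87.24 in slstop1 without Al, and 17.25, 16.04 and 12.58 in slstop1 with Al. Replicate 1 of WT with Al was far above the other two, which were much closer to slstop1 with Al than to WT without Al. The WT mean with Al was 47.5 ± 43.8 FPKM (SD, n = 3), and the gap between genotypes was 0.24 on the log2(FPKM + 1) scale. Without that library its slstop1 response minus its WT response went from -2.08 to -1.02.

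FER (Solyc06g051550.3) stood in the middle of the set by size of loss. Its libraries read 54.8, 56.77 and 42.08 FPKM in WT without Al, 57.57, 27.36 and 60.46 in WT with Al, 25.31, 36.31 and 30.99 in slstop1 without Al, and 7.2, 7.44 and 7.97 in slstop1 with Al. The slstop1 libraries were already below all WT libraries without Al, and the 3 with Al were lower again and close together. FER kept 94.6% in WT and 24.4% in slstop1 (responses -0.08 and -1.90). Replicate 2 of WT with Al was its lowest WT library, and the gap to the highest slstop1 library with Al was still 1.66 on the log2(FPKM + 1) scale.

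**Figure D3:**
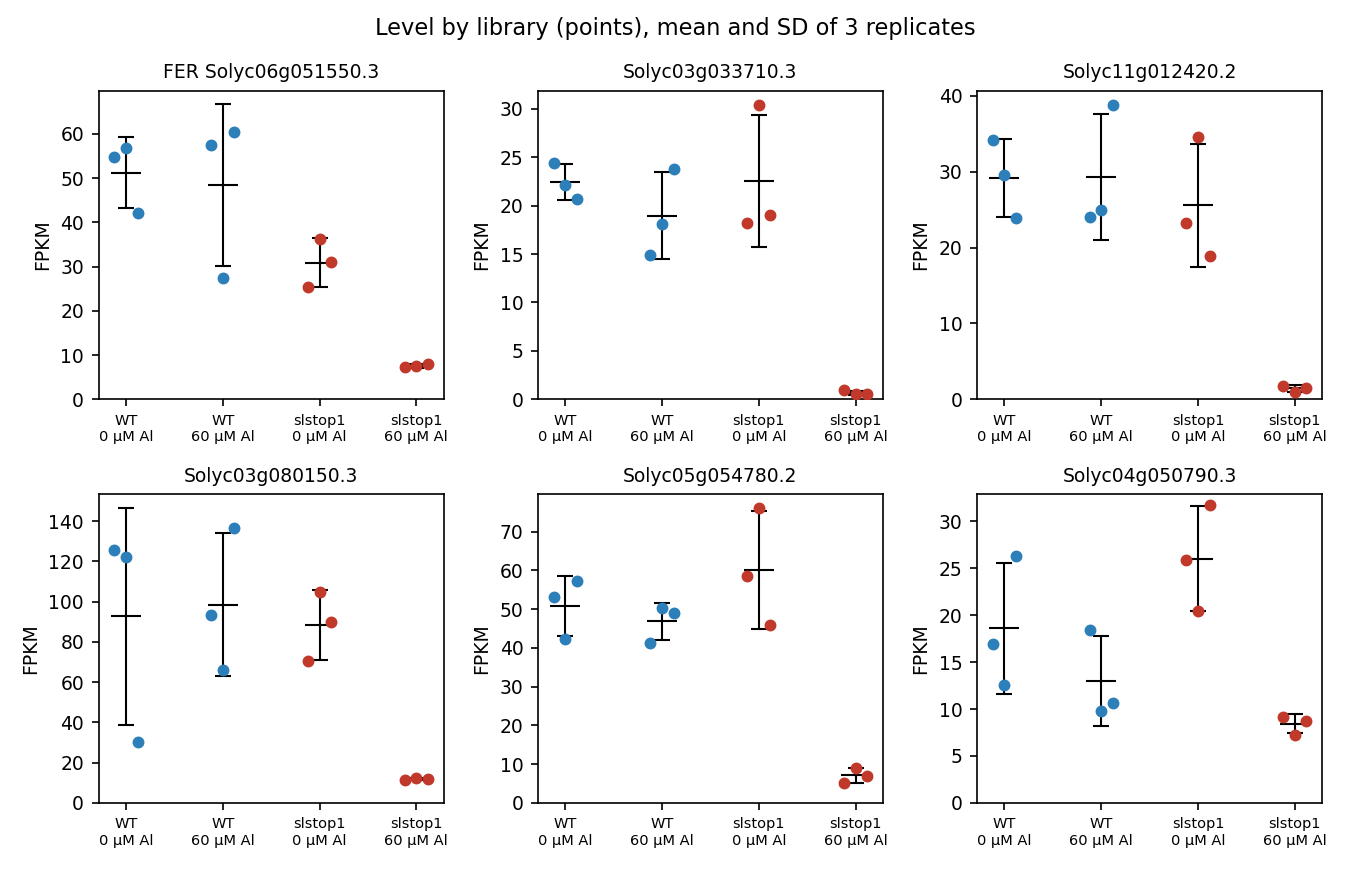
FPKM in each library (points; WT blue, slstop1 red) with the mean and SD of 3 replicates, for FER, for Solyc03g033710.3 and Solyc11g012420.2 (deep losses), for Solyc03g080150.3 (highest level), for Solyc05g054780.2 (neighbouring members) and for Solyc04g050790.3 (close to the limits). FER is the only one of the 6 whose slstop1 libraries without Al all lie below the WT libraries without Al, and Solyc04g050790.3 is the one whose genotypes nearly touch with Al.

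The iron genes recorded beside FER that could be tested had other patterns. Of 6 iron genes, FER included, 3 passed the filter on low values (3 libraries at 1 FPKM or more) and entered the limma fit (Benjamini-Hochberg adjustment over 15903 genes). CHLN (Solyc01g100490.3), which makes the metal chelator nicotianamine, rose with Al in slstop1, from 39.0 ± 2.81 to 74.8 ± 9.89 FPKM (SD, n = 3; log2 0.92 ± 0.296 SE, limma adjusted p = 0.0173). In WT it went from 47.7 ± 21.1 to 63.7 ± 12.9 FPKM and did not pass (log2 0.50, limma adjusted p = 0.165), and the difference between these responses did not pass either (interaction 0.41 ± 0.418, limma adjusted p = 0.735). SlNRAMP1 (Solyc11g018530.2), a metal transporter, fell in both genotypes, with WT means of 8.04 ± 3.67 FPKM without and 0.497 ± 0.212 FPKM with Al (log2 -2.52 ± 0.285, limma adjusted p = 2.28e-05). Its slstop1 means were 7.49 ± 1.16 and 0.207 ± 0.165 FPKM (log2 -2.81 ± 0.285, limma adjusted p = 6.4e-06), and the interaction did not pass (-0.30, limma adjusted p = 0.821). The iron transporter genes SlIRT1 and SlIRT2 and the ferric reductase gene SlFRO1 were not tested: SlIRT1 reached 2.27 FPKM in 1 WT library without Al and at most 0.29 in the others, SlFRO1 at most 0.62, and SlIRT2 was listed at 0 in all 12.

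Responses near the lower limit in WT mark the other end of the set. Solyc04g050790.3 had the lowest WT response of the 42 (-0.49) and the smallest difference between the responses (-1.04). It read 16.91, 12.58 and 26.3 FPKM in WT without Al, 18.48, 9.82 and 10.67 in WT with Al, 25.88, 20.5 and 31.71 in slstop1 without Al, and 9.19, 7.26 and 8.77 in slstop1 with Al. Only 0.09 on the log2(FPKM + 1) scale separated the genotypes with Al. Solyc05g051860.3 was as low in WT (-0.48) but far tighter, at 15.48, 14.81 and 13.94 FPKM in WT without Al and 10.74, 9.18 and 10.88 with Al, 20.27, 21.46 and 24.12 in slstop1 without Al, and 7.34, 4.68 and 6.06 with Al. Its WT libraries did not overlap between doses, and it was the 1 gene of the 42 called for Al in WT. Solyc06g073090.3, with a difference between responses of -1.12, came next to Solyc04g050790.3 in that order. Its WT means were 10.1 ± 1.62 FPKM without and 7.36 ± 2.12 FPKM with Al, and its slstop1 means 10.7 ± 2.77 and 3.02 ± 0.17 FPKM (SD, n = 3).

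The highest WT responses came from scattered libraries. Solyc07g066560.1 (WT response 0.35) read 25.26, 14.59 and 10.83 FPKM in WT without Al and 17.47, 36.01 and 11.85 with Al, against 14.68, 23.49 and 12.56 in slstop1 without Al and 5.27, 2.34 and 7.52 with Al. Solyc11g006450.2 (0.31) read 10.61, 11.59 and 8.24 in WT without Al and 12.89, 5.87 and 19.8 with Al, against 4.61, 7.92 and 7.93 in slstop1 without Al and 0.51, 0.31 and 0 with Al. In both the WT libraries overlap between doses, so the positive responses do not exceed the replicate spread. WT libraries with Al that all lay above those without were found in 0 of the 42, against 9.78% of the genes flat in WT and 22.7% of all tested genes. The WT response was part of the choice, so this count is a description.

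The limit of -1.5 cuts through a continuous range of responses. With all other conditions met, Solyc11g073010.1 was nearest inside it, at 6.02, 6.63 and 6.72 FPKM in slstop1 without Al and 1.46, 1.99 and 1.45 with Al. The next inside was Solyc04g050790.3 (-1.52), and 9 of the 42 lay within 0.1 of the limit. Nearest outside were Solyc02g079360.2 (-1.47), at a slstop1 mean of 5.43 FPKM without and 1.33 with Al, and Solyc01g008850.3 (-1.45), at 16.2 and 5.30 FPKM. Among the 13 genes set aside for overlap, 5 had a library at 0 in another group. Solyc09g065150.1, with a response of -5.63, read 0, 0 and 52.94 FPKM in WT without Al and 31.85, 113.42 and 0 in slstop1 without Al.

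Without Al the genotypes were close. The median of slstop1 minus WT over the 42 was 0.18 (log2) without Al and -1.79 with Al, against 0.00 and -0.17 over all tested genes. The slstop1 mean without Al was the higher in 32 of the 42, where it was in 47.2% of the 3159 genes flat in WT. That level is also the base of the slstop1 response by which the genes were selected. All 3 slstop1 libraries lay above all 3 WT libraries in 6 genes (4.77% of all tested genes did so) and below them in 2 genes (3.40% of all), which were FER and Solyc11g006450.2. By limma 0 of the 42 were called between genotypes without Al at an adjusted p under 0.05, where 0.176% of all tested genes were called, and 4 had an unadjusted p under 0.05 (5.42% of all).

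In the contrasts that chose the genes, limma counts are given beside those of all 15903 tested genes and support nothing. For Al in slstop1 all 42 were called lower (45.5% of all genes), and in 41 every slstop1 library with Al lay below every one without (49.8%). With Al, where non-overlap between genotypes was a condition of the rule (26.8% of all genes), 31 of the 42 were called lower in slstop1 than in WT (8.12%). For Al in WT 1 was called in either direction (60.9%), and 4 had WT libraries with Al that all lay below those without (40.0%). The interaction, the slstop1 response minus the WT response, was called lower for 18 (0.975%); FER was not among them (-1.74 ± 0.378 SE). The interaction count was unstable. It was 11 when replicate 1 or 2 of slstop1 with Al, or replicate 1 or 3 of WT with Al, was left out. It was 8, 8 and 9 without replicate 1, 2 or 3 of slstop1 without Al, and 9 without replicate 1 of WT without Al. Leaving out replicate 2 or 3 of WT without Al gave 12 and 19. Without replicate 3 of slstop1 with Al it was 13, and without replicate 2 of WT with Al it rose to 23. Interaction calls over all tested genes, in either direction, moved as well. They numbered 163 with all 12 libraries, and 58, 53 and 53 without replicate 1, 2 or 3 of slstop1 without Al. Without replicate 2 of WT with Al they numbered 239, and without replicate 3 of WT without Al 357. Other left-out libraries gave 68 to 142. The shift was thus not particular to the 42. The single WT call became 0 without replicate 1 of WT without Al, 2 without its replicate 2, 4 without its replicate 3, and 3 without replicate 1 of WT with Al. In the same order 9028, 9269, 9589 and 9121 of all tested genes were called for Al in WT, against 9688 with all 12 libraries.

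All 3 slstop1 libraries with Al shared the low level. Summed over the 42 genes, the 3 slstop1 libraries with Al held 209, 201 and 212 FPKM. WT libraries with Al held 971, 825 and 1034 FPKM, WT libraries without Al 1101, 1072 and 923, and slstop1 libraries without Al 1016, 1385 and 1063. Replicate 2 of slstop1 without Al stood high: it was the highest of its 3 libraries for 23 of the 42, with a median deviation of 0.23 (log2) from its group where all genes flat in WT had -0.02. Leaving it out, the rule found 36 genes, 35 of them among the 42. Replicate 2 of WT with Al stood low, the lowest of 3 for 22 of the 42 and for 50.3% of genes flat in WT (median deviation -0.17 and -0.08). Without it the rule found 53 genes, 34 of them shared. Replicate 3 of WT without Al stood low too, the lowest of 3 for 26 of the 42 and for 63.0% of genes flat in WT. Its median deviation was -0.17 for the 42 and -0.16 for genes flat in WT. Without this library the rule found 35 genes, 28 of them shared.

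The levels of the 42 genes were more scattered among replicates than those of other genes flat in WT. Their median coefficient of variation was 26.7% in WT with Al against 15.1% for the 3159, 24.6% against 10.8% in slstop1 without Al, and 29.2% against 8.04% in slstop1 with Al. In WT without Al the values were alike, 18.3% and 17.3%. In slstop1 with Al the 42 were also much lower in level, with a median of 2.80 FPKM against 17.9, and low levels rest on fewer fragments. That part of the scatter was not tested.

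The rule, whose limits were set with all 12 libraries known, was also applied to 2 replicates of every group, and the third was then read. It chose 51, 66 and 64 genes without replicate 1, 2 or 3, of which 28, 26 and 25 were among the 42. In the left-out libraries the median slstop1 response of the chosen genes was -1.94, -2.10 and -1.66, where all genes flat in WT by the same 2 replicates had -0.13, -0.18 and -0.05.

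Flatness in WT carried over less well. The median WT response of the chosen genes in the left-out libraries was -0.62, -0.76 and -0.81, against -0.13, -0.23 and 0.29 for all genes flat in WT. Of the chosen genes, 19 of 51, 23 of 66 and 15 of 64 were again between -0.5 and 0.5 in WT. Each count rests on single left-out libraries, and the same share was not worked out for all genes flat in WT. With Al, the left-out slstop1 library was below the left-out WT library in 47 of 51, 57 of 66 and 50 of 64 genes, where this held for 56.5%, 57.7% and 70.4% of genes flat in WT. The median difference between genotypes with Al was -1.54, -0.97 and -0.70, against -0.04, -0.06 and -0.14 for all genes flat in WT. All conditions of the rule were met again in the left-out libraries by 13 of 51, 15 of 66 and 8 of 64 genes. Those counts have no base from all genes either. Same-numbered libraries are not known to be pairs, and the chosen genes are not replicates of each other, so no test is given.

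**Figure D4:**
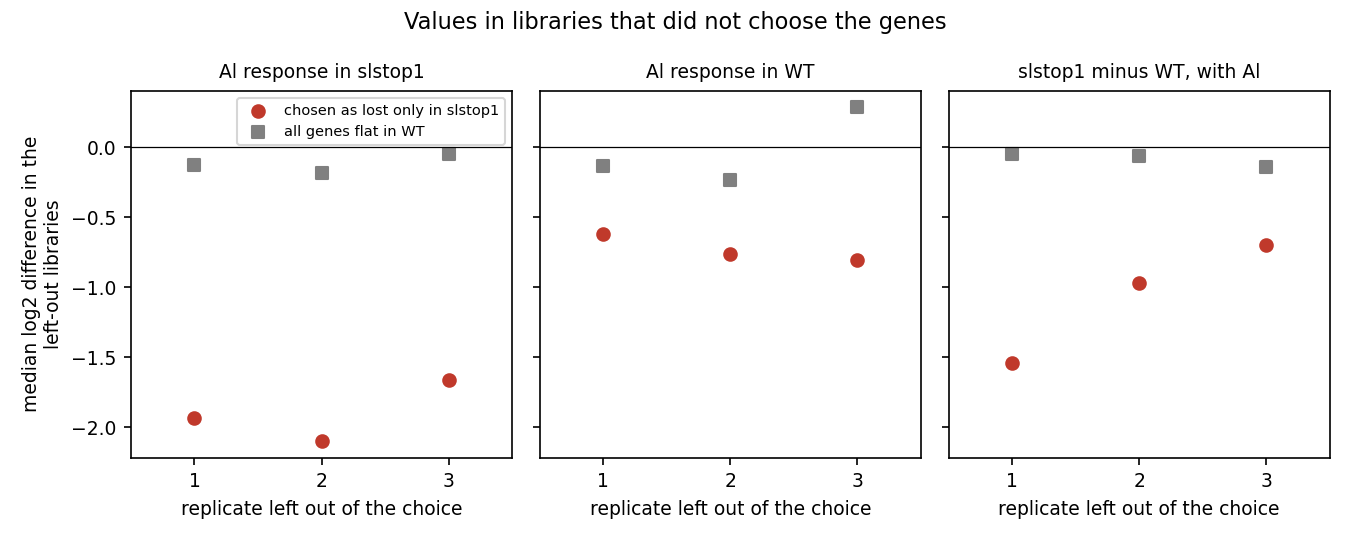
Median log2 difference in the libraries left out of the choice (vertical; from FPKM + 1), by the replicate left out (horizontal), for genes chosen by the rule on the other 2 replicates (red circles; 51, 66 and 64 genes) and for all genes flat in WT on those replicates (grey squares). The chosen genes keep a slstop1 response between -2.10 and -1.66, have a WT response between -0.81 and -0.62 rather than near 0, and are 0.70 to 1.54 lower in slstop1 than in WT with Al.

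Ranks within a library are not moved by scaling that library as a whole. Ranked among all tested genes of a library, the 42 had a median percentile of 59.6 to 64.1 in the WT libraries without Al and of 60.2 to 64.7 with Al. In slstop1 it was 66.3 to 72.4 without Al and 38.1 to 39.2 with Al. The 10 most abundant genes held 10.8% to 11.7% of the summed FPKM in the slstop1 libraries with Al and 5.08% to 8.20% in the others, and the part of that in the FPKM of the 42 was not tested. With median-of-ratios scaling the median response over the 42 was -0.0014 in WT and -1.66 in slstop1, and those of all tested genes moved to -0.07 and -0.09. The slstop1 responses of the 42 were then -1.08 or lower, and 38 had genotypes that did not overlap with Al (16.8% of all tested genes), both being values by which the genes were chosen. Under that scaling 41 genes met the rule, and 22 of them were among the 42.

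Of the 21 genes with a slstop1 response of -2 or lower, 20 met the rule with median-of-ratios scaling, and of the 21 others 2 did. That split follows from the limit, since the scaling moved the responses upward past it. Whichever of the 12 libraries was left out, the rule was met by 10 of the 21 deeper and 4 of the 21 shallower losses. Both median-of-ratios scaling and quantile normalisation kept 18 of the 42, and 9 of these also met the rule whichever of the 12 libraries was left out. Solyc03g033710.3, Solyc02g062510.3, Solyc11g012420.2 and Solyc03g080150.3 were among these 9. FER met the rule whichever library was left out, but not under either scaling, where its slstop1 response was -1.47 and -1.45, just short of the limit.

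The genes lay on all numbered chromosomes but 12, with 7 each on chromosomes 3 and 6 (16.7% of the 42 each, against 10.4% and 8.86% of the 3159 genes flat in WT). A few were neighbours, a feature looked for after the values were seen: 9 of the 42 had another member within 10 tested genes in the order of the identifiers. On chromosome 5 the consecutive gene models Solyc05g054780.2, Solyc05g054790.1 and Solyc05g054795.1 were all members. Solyc05g054780.2 read 53.11, 42.2 and 57.18 FPKM in WT without Al, 41.36, 50.33 and 48.96 in WT with Al, 58.52, 76.2 and 45.9 in slstop1 without Al, and 5.23, 9.01 and 6.96 in slstop1 with Al. Its WT libraries overlap between doses, and it kept 92.2% in WT and 11.7% in slstop1.

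Solyc05g054790.1 had a like mean in each group but wider scatter. Its means without and with Al were 43.2 ± 16.4 and 42.1 ± 21 FPKM for WT, and 50.6 ± 31.6 and 5.78 ± 1.37 FPKM for slstop1 (SD, n = 3). Solyc05g054795.1 was lower throughout, at 9.02 ± 1.24 and 8.68 ± 1.75 FPKM for WT, then 10.2 ± 0.715 and 1.92 ± 1.17 FPKM for slstop1. The next models on either side did not share the pattern. Solyc05g054770.3 had WT means of 1.23 and 3.74 FPKM (without and with Al) beside slstop1 means of 0.45 and 4.40, and Solyc05g054800.2 had WT means of 87.4 and 125 FPKM beside slstop1 means of 86.9 and 134. Whether the neighbours share reads through similar sequence was not tested.

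On chromosome 6, Solyc06g075630.3 and Solyc06g075650.3 are separated by 1 gene model. Solyc06g075650.3 read 56.16, 75.46 and 44.59 FPKM in WT without Al, 74.33, 31.94 and 95.22 in WT with Al, 43.37, 125.13 and 85.98 in slstop1 without Al, and 10.2, 4.7 and 11.53 in slstop1 with Al. The lowest WT library with Al was above the highest slstop1 library with Al, as the rule required, though the WT libraries spread widely among themselves. Solyc06g075630.3 read 6.13, 39.47 and 47.2 FPKM in WT with Al and 2.4, 3.87 and 0.77 in slstop1 with Al; its replicate 1 in WT fell near the slstop1 range. The model between them, Solyc06g075640.2, was low, at means of 1.53 and 0.44 FPKM in WT and 1.61 and 0.0633 in slstop1. The remaining neighbours were Solyc03g116800.3 with Solyc03g116820.3, which have no tested gene between them, and Solyc08g067510.1 with Solyc08g067620.2, which have 3.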

How the data were processed

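The authors deposited 1 table with a value per gene model and library, for 12 libraries. The deposited table names no unit. Its values are taken as FPKM, since they have decimals, their column sums differ, and 2 of the tools named by the submitters (Cufflinks and StringTie) report FPKM. Per the submitters' processing notes TopHat2, HISAT2, StringTie and Cufflinks were used, without versions or roles; the sources used here do not give the genome build and annotation. The files hold no counts, so depth is unknown and intervals for counting error are left out. Sample titles gave the group and the replicate number of each library. No library duplicated another: at least 95.5% of tested genes differed between any of 66 pairs.

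The rule was applied to group mean FPKM with a pseudocount of 1, which understates the change of low genes. The test covered the 15903 genes that reached 1 FPKM in 3 or more libraries, all 42 members among them. It was made on log2(FPKM + 1) by a group-means model over the 12 libraries, with 8 residual degrees of freedom, in limma 3.58.1 under R 4.3.3 (eBayes with a trend, two-sided, Benjamini-Hochberg adjustment over all tested genes, called under 0.05). Summaries and figures used Python 3.11.15, pandas 2.3.3 and matplotlib 3.10.9. The fit and the rule were tested on simulated data. The members, the lists and the tests were chosen with earlier results of these data known. Members were named by fixed orders of level and response, by the limits of the rule, and by a recorded name; neighbours on the chromosomes, Solyc08g048400.2 and Solyc09g065150.1 were named after their values were seen. The reference gene table (SLM_r2.1) matched 0 identifiers, so no sequence or coordinate is printed. Alternatives were other limits of the rule, pseudocounts, filters and scalings, eBayes settings, the replicate number as a block, and leaving out libraries.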

Additional observations from a re-analysis of the deposited data

Results flagged for a closer look

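For 18 of the 42 genes limma called the interaction, the slstop1 response minus the WT response, in each case with the lower response in slstop1, where 0.975% of all tested genes were so called. The count was 7 with quantile normalisation, 8 with the replicate number as a block, and 8 to 23 with 1 library left out. Over all tested genes 163 were called in either direction, and in these settings 63, 69 and 53 to 357. The rule chose the genes by the same values, so this count is a description and gives no support of its own.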

How the results depend on the processing

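The number of genes that met the rule, 42, moved with its own limits: 21 with a WT window of -0.25 to 0.25, 176 with -1 to 1, 110 with a slstop1 limit of -1, and 21 with -2. It was 21 with a pseudocount of 5, of which 16 were among the 42, and 27 with quantile normalisation, of which 19 were. It ran from 35 to 55 with 1 library left out, was 51, 66 and 64 with replicate 1, 2 or 3 left out of every group, and was 5 with the genotypes exchanged. Minima of 1 and 10 FPKM, a pseudocount of 0.1, median-of-ratios scaling and allowing overlap kept it within 1.5 times. Calls for Al in WT numbered 2 with a pseudocount of 5, 0 with either scaling, and 0 to 4 with a library left out. Over all tested genes these calls numbered 9723, then 9651 and 9610, then 8717 to 9589, against 9688 with the main settings. Calls for the interaction numbered 7 with quantile normalisation and 8 to 23 with a library left out. Over all tested genes they numbered 63 and 53 to 357, against 163 with the main settings. Same-numbered libraries of different groups did not deviate together (18 correlations over tested genes, -0.24 to 0.09). These correlations cannot show whether same-numbered samples shared a batch, and the sample titles do not say. With the replicate block 8 interaction calls were made among the 42, and 69 over all tested genes. Among the 42, calls for Al in slstop1 (37 to 42) and between genotypes with Al (24 to 34) and without Al (0) stayed within 1.5 times throughout. In the same order, calls over all tested genes ran from 7369 to 11312, from 580 to 2401 and from 7 to 48. The median slstop1 response was -2.43 and -1.34 with pseudocounts of 0.1 and 5, -1.66 with median-of-ratios scaling and -1.47 with quantile normalisation; the median WT response was -0.0014 with median-of-ratios scaling. The difference between responses of the 14 named members moved most with the pseudocount (0.1 and 5): to -6.51 and -1.49 for Solyc06g082260.3, -5.13 and -1.53 for Solyc00g009070.1, -4.55 and -1.40 for Solyc11g006450.2, and -4.65 and -2.09 for Solyc03g033710.3; at 5 it was -2.21 for Solyc02g062510.3, -2.25 for Solyc11g012420.2, -0.72 for Solyc11g073010.1 and -0.67 for Solyc06g073090.3. Depth is unknown, so values near 1 FPKM carry an unstated counting error.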
